A study of Mus musculus with 8 samples.

Results

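The 39 enzymes, transporters and regulators described here carry out glucose uptake, glycolysis, lactate formation, pyruvate entry into mitochondria, the pentose phosphate pathway and glycogen turnover. They were chosen by gene symbol, and 36 of them had a probe on the array, 34 through the platform annotation and 2 (Gpi1 and G6pdx) through the accession in the intensity table. These 36 genes had 47 of the 24613 probes. Pgam1, Eno1 and Pgd had no probe that could be named and are not analysed here. Illumina mouse bead arrays measured their expression in 4 replicates of NS5, a mouse neural stem cell line, and in 4 replicates of astrocytes made from it. The astrocytes were obtained by seeding NS5 cells in growth medium overnight, then keeping them without growth factors and with 5% fetal calf serum for 3 days. All 8 samples thus came from 1 cell line, and growth factor withdrawal, serum and astrocyte formation came together and cannot be told apart.

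Glycolysis breaks glucose down to pyruvate in the cytosol, with the steps of hexokinase, phosphofructokinase and pyruvate kinase as its control points. The pentose phosphate pathway branches off at glucose phosphate and supplies NADPH for synthesis and ribose for nucleotides. In brain, glycogen is held mainly by astrocytes, which are also known for strong glycolysis and for release of lactate. Several steps are served by isozymes from separate genes, such as aldolase A and the brain form aldolase C, or the lactate dehydrogenase subunits of the muscle and heart type.

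Signals are background-subtracted intensities after quantile normalization, in scanner units, given for arrays 1 to 4 of each group in that order. Median signals of the arrays before normalization lay between 28.0 and 33.0 units, and 46.0% to 47.9% of the probes exceeded an estimated background limit of 35.4 to 39.8 units. Gfap and Aqp4, an intermediate filament and a water channel of astrocytes, were below the background limit on all NS5 arrays and at least 16.7-fold and at least 36.6-fold higher in astrocytes. Of 14 astrocyte markers listed 12 were tested, of which 10 rose and 0 fell. S100b and Glul were not called, with log2 fold changes of 0.35 and -0.11, and Slc1a2 was above background on 0 arrays. Nes, a progenitor filament, had a log2 fold change of -0.63 and the stem cell factor Sox2 had 0.70, and of 7 stem cell markers tested 3 rose and 3 fell. Of 8 microglia markers with a probe, 0 were above background on any array. Of 7 fibroblast and pericyte markers, 1 was above background on an NS5 array and 3 on an astrocyte array, with a summed signal of 62.3 to 135 in NS5 cells and 227 to 518 in astrocytes. Acta2, smooth muscle actin, was under the background limit on all NS5 arrays and above it on all 4 astrocyte arrays (mean 226), at least 2.22-fold higher (adjusted p = 4.80e-05, limma), while the collagen genes Col1a1, Col1a2 and Col3a1 exceeded it on none. Of 8 markers of the oligodendrocyte lineage, 4 and 6 were above background on an array of the respective group, with sums of 533 to 617 and 1394 to 2056. Mbp was above background on 1 NS5 array and 4 astrocyte arrays, and Mog and Sox10 on none. Of 9 neuron markers 3 and 5 were above background, with sums of 546 to 700.1 and 474 to 704. Gap43 was above it on 0 NS5 and 4 astrocyte arrays, at least 1.84-fold higher (adjusted p = 1.21e-04, limma), Map2 fell by 0.96 on the log2 scale (adjusted p = 2.57e-07), and Tubb3 and Snap25 were not called. Of 6 endothelial markers 1 and 2 were above background, Pecam1 not among them. The part of these cells in the results was not tested.

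Of the tested genes, 2 of 2 of glucose uptake, 6 of 7 of the upper part of glycolysis and 3 of 4 of glycogen turnover were higher in astrocytes, and 5 of 6 of the pentose phosphate pathway were lower. Of the 36 genes with a probe, 30 passed the filter on dim probes and were tested, and 23 passed limma's test (adjusted p under 0.05), 16 higher and 7 lower in astrocytes. Among all 10377 genes tested, each probe without a gene symbol counting as a gene, 59.2% were called, 29.2% higher and 30.0% lower. The median log2 fold change, astrocyte minus NS5, was 0.47 for the 30 enzymes and -0.02 for all genes. At 2-fold or more, 13 were called higher and 0 lower, against 9.86% and 8.68% of all genes. For 2 of these 13 (Pfkp and Pdk2) the data give only a lower bound, which was under 2-fold. The count of 0 depends on the scale. With signals floored at 16 and nothing added before log2, 2 enzymes were called lower at 2-fold or more, against 1401 of the 10374 genes then tested. The 4 signals of one group lay wholly above those of the other for 24 of the 30, against 54.9% of all genes. A lower signal in these bulk samples can mean fewer cells that express a gene or less RNA per cell, which cannot be told apart. Fold changes are on the scale of log2(signal + 99.01), which understates the change of dim genes.

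**Figure D1:**
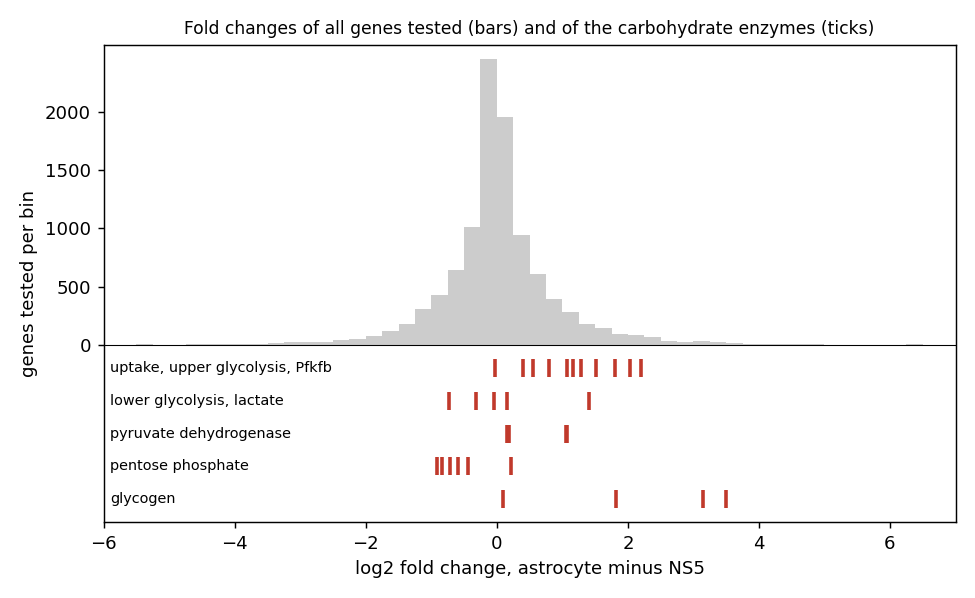
Number of genes tested per bin of log2 fold change, astrocyte minus NS5 (grey bars), with a tick for each of the 30 carbohydrate enzymes by pathway below. The ticks of glucose uptake, upper glycolysis and Pfkfb genes reach from -0.03 to 2.20 and those of glycogen genes from 0.09 to 3.50, while 5 of the 6 pentose phosphate ticks lie below 0.

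Promoter letters are shown for 4 genes of the pathways that moved together, chosen after their values were seen. They are the 250 bases before the most upstream RefSeq start (GRCm38.p6, gene strand) of the glycogen gene Ppp1r3c, the glycolytic regulator Pfkfb3 and the aldolase Aldoc, which rose, and of the pentose phosphate gene Pgls, which fell. Capitals mark ACGTG and GCGTG on either strand, the core letters that hypoxia-inducible factor is known to bind in its response elements.
Ppp1r3c, chr19:36736605-36736854, minus strand: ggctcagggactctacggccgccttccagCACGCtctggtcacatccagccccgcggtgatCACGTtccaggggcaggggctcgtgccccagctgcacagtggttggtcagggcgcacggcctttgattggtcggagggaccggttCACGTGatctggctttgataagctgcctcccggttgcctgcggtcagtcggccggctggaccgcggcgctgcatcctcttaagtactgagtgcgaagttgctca
Pfkfb3, chr2:11553930-11554179, minus strand: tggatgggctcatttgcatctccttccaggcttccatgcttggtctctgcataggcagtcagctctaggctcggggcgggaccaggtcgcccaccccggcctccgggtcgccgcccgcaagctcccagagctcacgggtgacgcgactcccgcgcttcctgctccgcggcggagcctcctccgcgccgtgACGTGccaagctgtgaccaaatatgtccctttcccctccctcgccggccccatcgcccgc
Aldoc, chr11:78322823-78323072, plus strand: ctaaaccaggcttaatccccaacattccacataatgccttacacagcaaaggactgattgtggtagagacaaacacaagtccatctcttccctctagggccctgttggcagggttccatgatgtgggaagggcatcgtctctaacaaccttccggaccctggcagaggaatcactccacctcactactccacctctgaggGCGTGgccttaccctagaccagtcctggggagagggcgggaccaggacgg
Pgls, chr8:71591934-71592183, plus strand: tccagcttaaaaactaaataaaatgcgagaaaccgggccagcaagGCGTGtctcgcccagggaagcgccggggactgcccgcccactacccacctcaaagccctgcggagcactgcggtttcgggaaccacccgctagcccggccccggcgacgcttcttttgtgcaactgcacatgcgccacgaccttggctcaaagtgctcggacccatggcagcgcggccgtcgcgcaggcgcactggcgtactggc
Counted from the base before the start as -1, the window of Ppp1r3c held GCGTG at -221 and ACGTG at -189, each on the strand opposite the one printed (as CACGC and CACGT), and the palindrome CACGTG, which holds ACGTG on both strands, at -104. That of Pfkfb3 held ACGTG at -60, that of Aldoc GCGTG at -50 and that of Pgls GCGTG at -205. ACGTG was present in the windows of 8 of the 16 genes called higher, of 1 of the 7 called lower and of 2 of the 7 not called, and in 21.1% of the 7411 genes tested that had a window. GCGTG was present in 10 of 16, 5 of 7 and 3 of 7, and in 44.2% of those genes. The median GC content of the windows was 61.2% for genes called higher and for genes called lower, and 59.2% for the genes tested. These matches describe letters and no binding.

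Entry of glucose was represented by Slc2a1, the glucose transporter GLUT1, and by the hexokinases, which trap glucose as its phosphate. On the NS5 arrays the signals of Slc2a1 were 782, 797, 883 and 771, and on the astrocyte arrays 1295, 2136, 1757 and 2197. The groups did not overlap, and array 1 was the lowest of the astrocytes. This gave Slc2a1 a log2 fold change of 1.07 ± 0.14 (SE) with an adjusted p = 1.82e-05 (limma). The signals of Hk2 were 1953, 1838, 2114 and 2090.4 in NS5 cells and 5420.2, 3281, 3464 and 2502 in astrocytes. Hk2 was therefore higher on every astrocyte array than on any NS5 array, with a wide spread among astrocytes. Hk2 thus had a log2 fold change of 0.79 ± 0.17 (SE, limma adjusted p = 0.00163). Hk1, the hexokinase that is general in brain, was not above background on any array, with mean signals of -12.5 ± 15.2 in NS5 cells and 7.79 ± 19.2 in astrocytes (SD, n = 4), so that a switch between Hk1 and Hk2 could not be read.

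Of the 7 genes from glucose phosphate isomerase to triose phosphate isomerase, 6 rose, 0 fell and Gpi1 was not called. Their median log2 fold change was 1.17, or 0.72 with Pfkp at its bound. Pfkl, Pfkm and Pfkp encode the liver, muscle and platelet forms of phosphofructokinase, the committed step of glycolysis. For Pfkl the 4 NS5 signals were 1977, 1789.5, 2018 and 2036, against 5552, 5959.5, 5785 and 5741 in the astrocytes. The astrocyte arrays lay close together and well above the NS5 arrays. With limma, the change of Pfkl was 1.51 ± 0.07 on the log2 scale (SE, adjusted p = 1.95e-09). Signals of Pfkm were 3903, 4087, 4906 and 4502 on NS5 arrays, and 7902, 9137, 10707 and 12185 on astrocyte arrays. The groups did not overlap here either. The log2 fold change of Pfkm was 1.17 ± 0.13 (SE, adjusted p = 3.89e-06, limma). Its dimmer probe gave 0.69. In NS5 cells Pfkp had signals of -10.6, -2.05, -3.64 and -4.66, and in astrocytes of 143, 106, 189.9 and 86.2. Pfkp was under the background limit on every NS5 array and above it on all 4 astrocyte arrays, at least 1.65-fold higher (adjusted p = 1.13e-06, limma). Its other probe was above background on 1 astrocyte array.

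Pfkfb2 and Pfkfb3 encode the enzymes that make and remove fructose bisphosphate of the regulatory kind, the strongest known activator of phosphofructokinase. Pfkfb2 had normalized signals of 346, 351, 330.0 and 285 on the NS5 arrays and of 2199, 1672, 1599 and 2027 on the astrocyte arrays. On the NS5 arrays the signals of Pfkfb3 were 229.9, 252, 298 and 273, and on the astrocyte arrays 1388, 1370.4, 1337 and 1421. For both, every astrocyte array was above every NS5 array, and the astrocyte signals of Pfkfb3 spanned a narrow range. This gave Pfkfb2 a log2 fold change of 2.20 ± 0.10 (SE) with an adjusted p = 2.14e-09 (limma). Pfkfb3 thus had a log2 fold change of 2.03 ± 0.08 (SE, limma adjusted p = 2.49e-10). The second probe of Pfkfb2 was brighter than background on 2 of the 4 arrays of NS5 cells, and its log2 fold change was 0.23, not called over all probes (adjusted p = 0.120, limma), so that the 2 probes of this gene disagree in size.

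Aldoa and Aldoc, the aldolases that split fructose bisphosphate into trioses, both rose. The signals of Aldoa were 3806, 3946, 4356 and 4054 in NS5 cells and 5529.6, 6326, 5741 and 6194 in astrocytes. For Aldoc the 4 NS5 signals were 6978, 7543, 7259 and 7781, against 22004, 25336, 27759 and 29614 in the astrocytes. In both genes the groups were separate, and the distance was wider for Aldoc. With limma, the change of Aldoa was 0.55 ± 0.08 on the log2 scale (SE, adjusted p = 4.10e-05). The log2 fold change of Aldoc was 1.80 ± 0.09 (SE, adjusted p = 5.34e-09, limma). The dimmer Aldoc probe gave 1.94. Tpi1, triose phosphate isomerase, had mean signals of 8419 ± 523 in NS5 cells and 11107 ± 408 in astrocytes (SD, n = 4), and its log2 fold change was 0.40 ± 0.07 (SE, adjusted p = 4.18e-04, limma). This call depended on the scaling and on the probe: the log2 fold change was 0.22 with median centring (adjusted p = 0.135). A second, dimmer probe went the other way, with -0.30 (adjusted p = 0.0117 over all probes, limma) and groups that did not overlap. Gpi1, glucose phosphate isomerase, had mean signals of 4892 ± 219 in NS5 cells and 4784 ± 385 in astrocytes (SD, n = 4), the log2 fold change being -0.03 ± 0.08 (SE, adjusted p = 0.747).

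**Figure D2:**
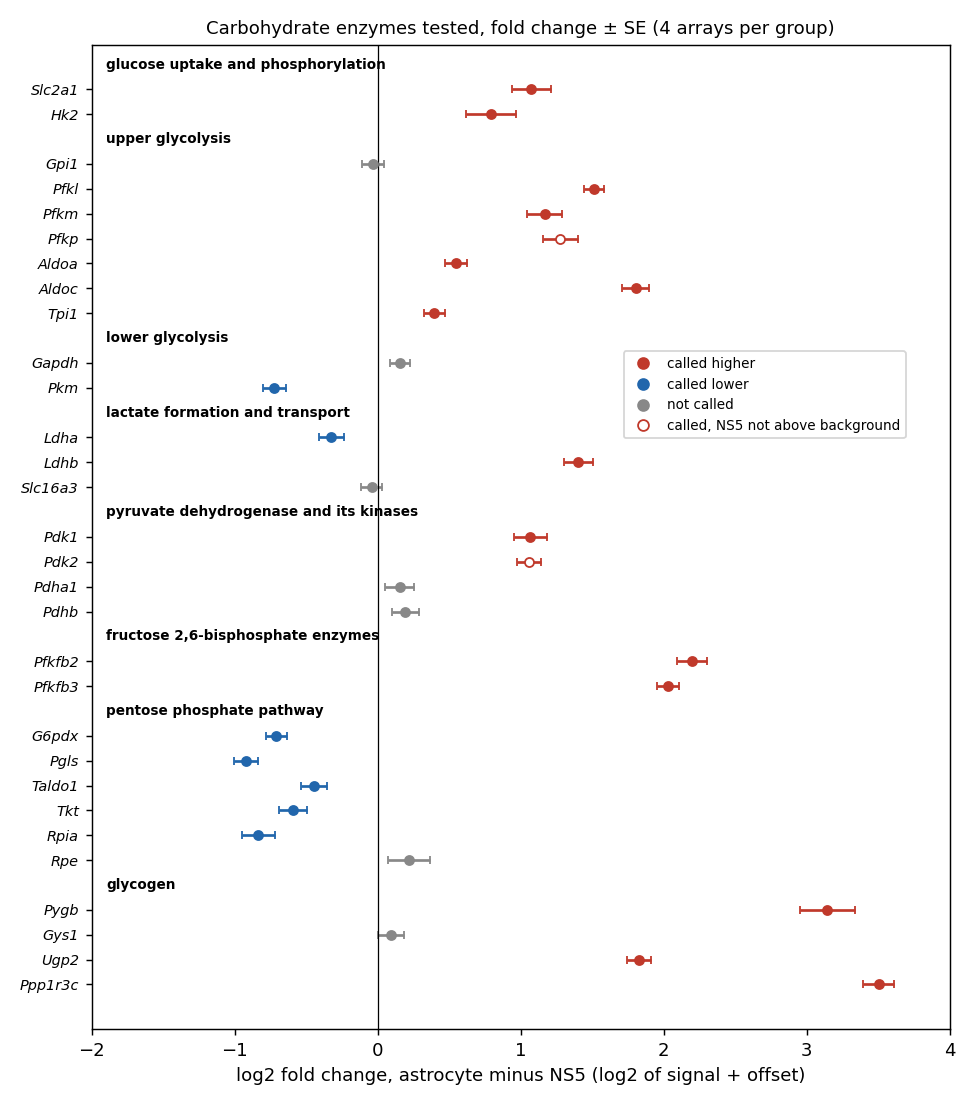
Log2 fold change (astrocyte minus NS5, x axis) of the 30 tested enzymes grouped by pathway, with the standard error as bars. Red points were called higher, blue lower and grey not called, and open points (Pfkp and Pdk2) had no NS5 array above background. Ppp1r3c at 3.50 is the highest and Pgls at -0.92 the lowest.

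The lower part of glycolysis, from glyceraldehyde phosphate to pyruvate, was covered by few probes. Pgk1 and Eno2 stayed under the background limit on all 8 arrays, and 2 of the 6 genes, Gapdh and Pkm, were tested. Signals of Pkm were 7532, 7585, 6795 and 7087 on NS5 arrays, and 4875, 4360.3, 4161 and 4033 on astrocyte arrays. The astrocyte signals of Pkm, pyruvate kinase, were all below those of NS5 cells. This gave Pkm a log2 fold change of -0.72 ± 0.08 (SE) with an adjusted p = 5.13e-06 (limma). Pkm makes M1 and M2 forms by splicing, and which of them its probe reports was not tested. Gapdh, glyceraldehyde phosphate dehydrogenase, had mean signals of 20994 ± 637 in NS5 cells and 23374 ± 1119.7 in astrocytes (SD, n = 4), and its log2 fold change was 0.15 ± 0.07 (SE, adjusted p = 0.0769). Its direction was not settled, being -0.26 with median centring (adjusted p = 0.0368) and -0.18 and 0.06 by its other probes. Gapdh has many processed copies in the mouse genome, and how far its probes tell them apart was not tested.

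Lactate dehydrogenase changed in opposite directions in its subunits. Ldha encodes the muscle-type subunit, known to favour the making of lactate, and Ldhb the heart-type subunit. In NS5 cells Ldha had signals of 10707, 11246, 12151 and 11921, and in astrocytes of 9310.0, 9164, 10419 and 7937. Ldhb had normalized signals of 1338, 1465, 1521 and 1451 on the NS5 arrays and of 3262, 3912, 4202 and 4648 on the astrocyte arrays. Ldha was lower on every astrocyte array and Ldhb higher on every astrocyte array than on any NS5 array. Ldha thus had a log2 fold change of -0.32 ± 0.09 (SE, limma adjusted p = 0.00734). With limma, the change of Ldhb was 1.40 ± 0.10 on the log2 scale (SE, adjusted p = 1.01e-07). Both kept their direction and their call under the 17 alternatives run. Of the monocarboxylate transporters, which carry lactate across the membrane, Slc16a3 had mean signals of 95.7 ± 9.09 in NS5 cells and 90.1 ± 9.36 in astrocytes (SD, n = 4) and was not called, its log2 fold change being -0.04 ± 0.07 (SE, adjusted p = 0.659). Slc16a1 was not above background on any array.

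At the pyruvate dehydrogenase complex, which feeds pyruvate to the citric acid cycle, the kinases rose and the subunits of the enzyme itself were not called. Pdk1, a kinase that inactivates the complex, is the better measured of them. On the NS5 arrays the signals of Pdk1 were 179, 150.1, 179 and 173, and on the astrocyte arrays 486, 484, 339 and 579.8. The groups did not overlap. The log2 fold change of Pdk1 was 1.07 ± 0.12 (SE, adjusted p = 4.40e-06, limma). The signals of Pdk2 were 14.9, 28.3, 23.3 and 5.24 in NS5 cells and 131, 145, 159 and 141 in astrocytes. Pdk2, a second such kinase, was under the background limit on all NS5 arrays and at least 1.76-fold higher (adjusted p = 1.75e-07, limma). Pdk4 was not above background on any array. The subunits of the E1 enzyme, Pdha1 and Pdhb, had mean signals of 2715 ± 383 in NS5 cells and 3018 ± 242 in astrocytes (SD, n = 4) and mean signals of 218 ± 27.8 in NS5 cells and 264 ± 40.1 in astrocytes (SD, n = 4), with log2 fold changes of 0.15 ± 0.10 and 0.19 ± 0.09 (SE, adjusted p = 0.226 and 0.101, limma). Without NS5 array 3, Pdhb was called at 0.25 (adjusted p = 0.0441).

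In the pentose phosphate pathway 5 of the 6 tested genes fell and 0 rose, and the median log2 fold change was -0.65. Its oxidative steps begin with G6pdx, glucose phosphate dehydrogenase, and continue with the lactonase Pgls. For G6pdx the 4 NS5 signals were 288, 297, 322 and 332, against 146, 134, 166 and 159 in the astrocytes. Signals of Pgls were 12441, 11628, 10924 and 10012 on NS5 arrays, and 6013, 6359, 5703 and 5469.9 on astrocyte arrays. For both genes all astrocyte signals were below all NS5 signals. This gave G6pdx a log2 fold change of -0.71 ± 0.07 (SE) with an adjusted p = 3.12e-06 (limma). Pgls thus had a log2 fold change of -0.92 ± 0.09 (SE, limma adjusted p = 9.93e-07). Genes of the non-oxidative steps fell as well. Rpia, ribose phosphate isomerase, is the entry to the latter. In NS5 cells Rpia had signals of 423, 481, 515 and 448, and in astrocytes of 308, 193, 172 and 213. Array 1 was the highest of the astrocytes and still below the lowest NS5 array. With limma, the change of Rpia was -0.83 ± 0.12 on the log2 scale (SE, adjusted p = 3.99e-05). Taldo1, transaldolase, fell from 3987 ± 303 to 2910.2 ± 321 units (SD, n = 4), and Tkt, transketolase, from 15115 ± 909 to 10055 ± 1287 units (SD, n = 4). Their log2 fold changes were -0.44 ± 0.09 and -0.59 ± 0.10 (SE, adjusted p = 8.97e-04 and 1.54e-04, limma). The second Tkt probe, dimmer by far, did not follow, with 0.26 (adjusted p = 0.103 over all probes), and with the mean of its probes Tkt was not called, at -0.17 (adjusted p = 0.116). Rpe, the epimerase, had overlapping groups and was not called, the log2 fold change being 0.22 ± 0.15 (SE, adjusted p = 0.241).

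**Figure D3:**
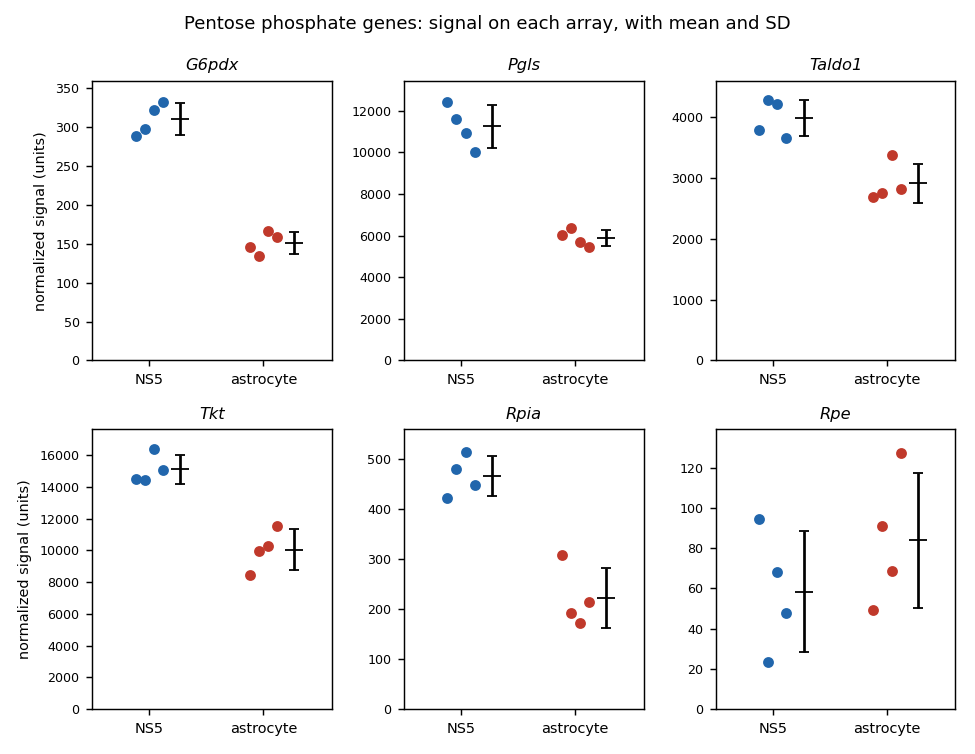
Normalized signal (y axis, scanner units) of the 6 pentose phosphate genes on each of the 4 NS5 arrays (blue) and 4 astrocyte arrays (red), with the mean and SD in black. In 5 panels every red point lies below every blue point, and in the panel of Rpe the groups overlap.

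The 2 highest fold changes of the set were those of glycogen genes, and 3 of the 4 tested glycogen genes rose and 0 fell. The median log2 fold change of the 4 was 2.49. Ppp1r3c, a subunit that brings protein phosphatase to glycogen and is known to favour glycogen synthesis, ranked 57 of 10377 genes by fold change. Ppp1r3c had normalized signals of 500.2, 676, 693 and 653 on the NS5 arrays and of 7075, 8016, 9496 and 8098 on the astrocyte arrays. The log2 fold change of Ppp1r3c was 3.50 ± 0.11 (SE, adjusted p = 5.73e-11, limma). Pygb, the brain form of glycogen phosphorylase, which releases glucose phosphate from glycogen, ranked 90. On the NS5 arrays the signals of Pygb were 89.0, 120.0, 124 and 131, and on the astrocyte arrays 1109, 1649, 2304 and 2442. The astrocyte arrays of Pygb differed among themselves by more than 2-fold, and all were far above the NS5 arrays. This gave Pygb a log2 fold change of 3.14 ± 0.19 (SE) with an adjusted p = 2.14e-08 (limma). Ugp2 makes UDP-glucose, the donor for glycogen and for other glycans. The signals of Ugp2 were 269, 347, 348 and 322 in NS5 cells and 1277, 1368, 1493 and 1419.8 in astrocytes. Ugp2 thus had a log2 fold change of 1.83 ± 0.08 (SE, limma adjusted p = 1.77e-09). Gys1, glycogen synthase, was not called. It had mean signals of 158 ± 20.8 in NS5 cells and 175 ± 26.4 in astrocytes (SD, n = 4), and its log2 fold change was 0.09 ± 0.09 (SE, adjusted p = 0.425). Its second probe that passed the filter gave 0.18. Gbe1, the branching enzyme, was not above background on any array.

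**Figure D4:**
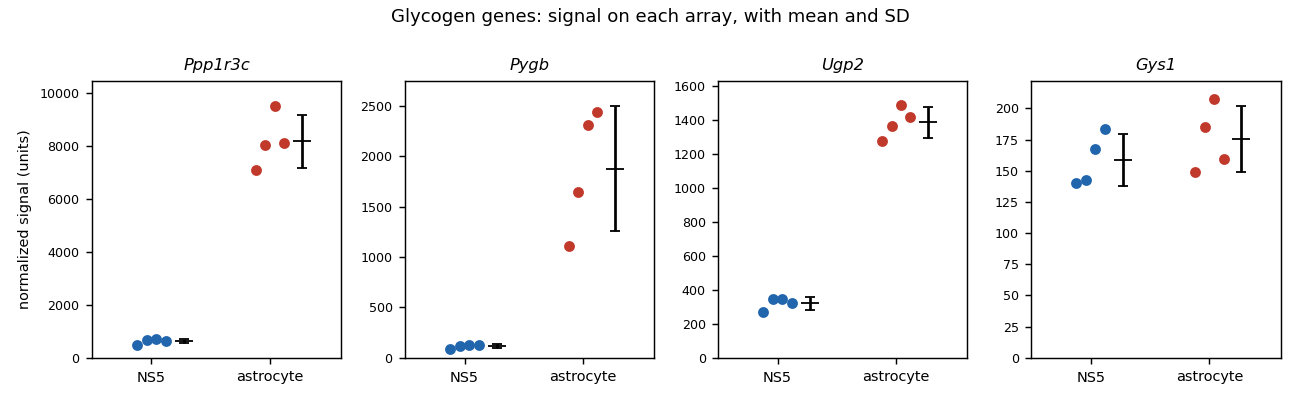
Normalized signal (y axis, scanner units) of 4 glycogen genes on each NS5 array (blue) and each astrocyte array (red), with the mean and SD in black. The astrocyte points of Ppp1r3c, Pygb and Ugp2 lie above all NS5 points, and those of Gys1 overlap with them.

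Unequal change of isozymes was read from the difference of their log2 signals on the same array. Of 12 pairs considered, 4 had both genes above background on all 8 arrays and were tested by a two-sided exact permutation test over the arrays, whose smallest p is 0.0286. The measured rise was larger for Aldoc than for Aldoa. The log2 difference Aldoc minus Aldoa went from 0.86 ± 0.09 in NS5 cells to 2.11 ± 0.15 in astrocytes (SD, n = 4), a change of 1.26 ± 0.09 (SE, exact p = 0.0286, 0.0571 adjusted over the 4 pairs). For Ldhb minus Ldha it went from -2.91 ± 0.04 in NS5 cells to -1.19 ± 0.31 in astrocytes, a change of 1.73 ± 0.15 (exact p = 0.0286, adjusted 0.0571). In these 2 pairs each astrocyte array was above each NS5 array, which is as far as 4 against 4 arrays can go, and the adjusted p still missed 0.05. For Pfkm minus Pfkl the change was -0.35 ± 0.14 (exact p = 0.0571, adjusted 0.0762), and for Pfkfb3 minus Pfkfb2 it was -0.17 ± 0.13 (exact p and adjusted p = 0.257). With the brightest probe per gene, no pair had an adjusted p under 0.05 in this test. Unequal change is thus not shown for Pfkm with Pfkl or for Pfkfb3 with Pfkfb2. For the 2 pairs already at the smallest exact p, the adjusted p depended on the other pairs, so the test cannot decide on them. By limma, each gene by itself, Ldha was called lower and Ldhb higher, while Aldoa and Aldoc were both called higher. The difference Pfkfb3 minus Pfkfb2 turned with the mean of all probes per gene, at 0.82 (adjusted p = 0.0286), the dim second probe of Pfkfb2 entering the mean. The other 8 pairs, among them Hk1 with Hk2 and Eno1 with Eno2, held a gene with no probe or with arrays not above background.

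**Figure D5:**
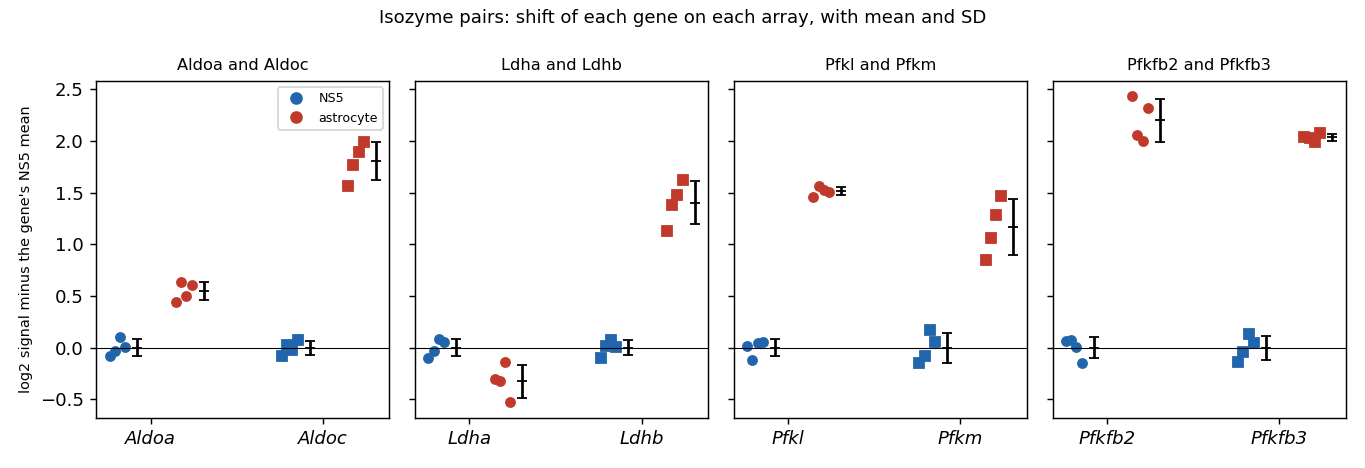
Log2 signal of each isozyme on each array minus the mean of that gene on the NS5 arrays (y axis), for the 4 pairs tested, NS5 in blue and astrocyte in red with mean and SD in black. The astrocyte points of Aldoc lie above those of Aldoa, the astrocyte points of Ldha and Ldhb lie on opposite sides of 0, and those of Pfkfb2 and Pfkfb3 lie at like heights.

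Beyond these enzymes, further genes of the same pathways were examined. Of 87 listed, 77 had a probe and 44 were tested, of which 18 rose and 8 fell, the median log2 fold change being 0.10. The share called, 59.1%, was near the 59.2% of all genes tested (29.2% higher and 30.0% lower), and the counts below, over 4 to 12 genes each, are given as a description against these shares. In the glycogen list 7 of 12 tested genes rose and 0 fell, and their median log2 fold change was 0.29. Phkg1, a catalytic subunit of phosphorylase kinase, which activates glycogen phosphorylase, was under the background limit on all NS5 arrays and reached 653 ± 135 units (SD, n = 4) in astrocytes, at least 5.40-fold higher. Ppp1r3f, another glycogen-targeting subunit of the phosphatase, had a change of 1.23 ± 0.09 on the log2 scale (SE, adjusted p = 1.36e-07, limma). Among sugar transporters and hexokinases 3 of 9 rose and 4 fell. The transporter Slc2a3 (GLUT3), best known from neurons, had a change of 1.68 ± 0.12 on the log2 scale (SE, adjusted p = 6.64e-08, limma), and Slc2a6 had a change of -1.37 ± 0.11 on the log2 scale (SE, adjusted p = 1.71e-07, limma) with 1 of the 4 astrocyte arrays above background. In the list of lactate, pyruvate and the dehydrogenase complex 4 of 7 rose and 0 fell. Pdp1, the phosphatase that reactivates pyruvate dehydrogenase, had a change of 1.91 ± 0.07 on the log2 scale (SE, adjusted p = 3.52e-10, limma), so that this phosphatase gene and the kinase genes Pdk1 and Pdk2 rose together. Of 6 further glycolysis genes 3 rose and 1 fell. In the further pentose phosphate and ribose genes 0 of 4 rose and 1 fell. Of 6 gluconeogenesis genes 1 rose and 2 fell, the riser being Pcx, pyruvate carboxylase, with a change of 1.40 ± 0.15 on the log2 scale (SE, adjusted p = 3.11e-06, limma) and 2 of the 4 NS5 arrays above background.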

How the data were processed

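The deposited scanner-level table holds linear intensities of 24613 probes on 8 arrays, already background-subtracted, since 29.6% to 30.7% of an array's values did not exceed 0. A second table deposited by the authors holds log2 values and equals the intensities floored at 10, log2 transformed and quantile normalized, within 4.99e-09. It served as an alternative. Scanner software, genome build, slide and scan date were not given in the sources used here. With 4 arrays in each group the number of arrays limits precision. Per the labels' protocols, RNA was amplified with the TotalPrep kit and labelled with biotin.

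Each intensity was raised by 99.01, so that the lowest became 16, log2 transformed and quantile normalized. Probes with a mean above the median (12306) were kept, and the brightest probe stood for each symbol, giving 10377 genes. A probe without a gene symbol counted as a gene of its own, so shares and ranks over all genes include such probes. Of the probes, 20984 were named by the platform annotation and 687 by accession through RefSeq (GRCm38.p6). The test was that of limma 3.58.1 under R 4.3.3 (group as the single term, Benjamini-Hochberg over all genes, called at an adjusted p under 0.05). The background limit of an array was 1.64 times (the 0.95 normal quantile) the root mean square of its negative signals. A gene not above it on any array of a group has a lower bound of the fold only, the bright group's mean against the higher, per array, of the lowest value above the limit and the gene's own. On simulated data with 10343 genes tested, 77.8% of changes of 0.5 on the log2 scale and 100% of larger ones were recovered, and 0.108% of unchanged genes were called. Only 45, 43, 35 and 32 tested genes were given changes of 0.5, 1, 2 and 4 there, while 59.2% of genes were called in the real data. The adjustment for multiple tests depends on that share, so the simulated rates do not carry over to these data.

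The design named neqc for signals with a detection p, and the fallback written there for subtracted signals was used. All 39 enzymes are named, and of further pathway genes those called at 2-fold or more. In the list of hypoxia-inducible factor all tested genes are named. The enzymes, gene lists and pairs were chosen with earlier results of these data known. The p-values measure the spread between biological replicates of 1 line. Alternatives were median centring, the authors' table, a floor of 16, no filter or a background filter, the mean of probes, array weights, trended variance, a replicate block and leaving out each array. Same-numbered arrays of the groups had correlations of their deviations between -0.05 and 0.15, so the numbers were not taken as pairs.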

Additional observations from a re-analysis of the deposited data

Results flagged for a closer look

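In 68 groups of 4 arrays examined (30 genes and 4 isozyme differences in both groups), 1 held an array set apart from the other 3 by Dixon's criterion. Astrocyte array 3 had a signal of 10500 for Tpi1, triose phosphate isomerase, against 11246 to 11353 on the other astrocyte arrays, and it still lay above all NS5 arrays. Chance sets apart about 1 in 20 such groups.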

How the results depend on the processing

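Over 17 alternatives the number of enzymes called ran from 21 to 24, with 15 to 17 higher and 6 to 8 lower, and the number of all genes called higher ran from 2565 to 3200. At 2-fold or more, 13 enzymes were higher and 2 lower with the authors' table and with a floor of 16. With median centring 12 were higher and 1 lower. Of 510 values of single enzymes, 504 kept their direction and their side of the threshold. Gapdh turned with median centring, at -0.26, and was called with a trended variance, at 0.15. Tpi1 lost its call with median centring (0.22) and with the mean of probes (0.05), Tkt with the mean of probes (-0.17), and Pdhb gained a call without NS5 array 3 (0.25). With the mean of probes, all 4 isozyme differences had an adjusted p = 0.0286: Aldoc minus Aldoa was 1.33, Ldhb minus Ldha 1.73, Pfkm minus Pfkl -0.58 and Pfkfb3 minus Pfkfb2 turned to 0.82. Ldha and Ldhb have 1 probe each, so their difference and exact p could not change. Their adjusted p fell because the Pfk and Pfkfb pairs then reached the smallest exact p. Without astrocyte array 4, Aldoc minus Aldoa, Ldhb minus Ldha and Pfkm minus Pfkl passed (adjusted p = 0.0381). The exact p of the first 2 was the smallest possible with and without this array. Their adjusted p fell because Pfkm minus Pfkl reached it too. Leaving out single arrays, the 4 isozyme differences ran from 1.21 to 1.30, 1.58 to 1.83, -0.45 to -0.26 and -0.23 to -0.09. The cause of these ranges was not tested. With the replicate number as a block, 23 enzymes were called, and the differences stayed at 1.26, 1.73, -0.35 and -0.17, with paired exact p-values that cannot go below 0.125. Not every array correlated best with the array of its own number. Array weights, trended variance and filters were not run for the isozyme differences, which use no fit. Signal over background limits Hk1, Pgk1, Eno2, Slc16a1, Pdk4 and Gbe1, for which no change could be read.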

Other observations

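Hypoxia-inducible factor is known to induce many of the glycolytic genes, and its other targets and regulators were examined beside them. Of 22 listed genes 20 had a probe and 14 were tested, of which 7 rose and 2 fell, the median log2 fold change being 0.29. The share called was 64.3%, near the 59.2% of all genes tested (29.2% higher and 30.0% lower). Among the genes called, 77.8% rose in this list and 49.3% among all genes. With 14 genes the list was not tested as a set, and the counts are given as a description. P4ha1, a prolyl hydroxylase of collagen, had a log2 fold change of 1.86 ± 0.13 (SE, limma adjusted p = 7.26e-08), with mean signals of 174 ± 32.3 in NS5 cells and 900.2 ± 195 in astrocytes (SD, n = 4). Egln3, a hydroxylase that marks the factor for breakdown, had 1.59 ± 0.15 (adjusted p = 1.42e-06). Higd1a, a mitochondrial protein of the hypoxia response, was under the background limit on all NS5 arrays and at least 2.46-fold higher in astrocytes. Mxi1, Vhl and Bnip3l were called higher too, with log2 fold changes of 0.88, 0.71 and 0.40. Ndrg1 was under the background limit on all NS5 arrays and at least 1.42-fold higher. Vegfa, the endothelial growth factor, and Car9, a carbonic anhydrase, were not called, with log2 fold changes of 0.17 and -0.04. Egln1, Egln2 and Ddit4 were not called either, with -0.23, -0.05 and 0.19. Adm, adrenomedullin, and Arnt fell, with -0.41 and -0.26 (adjusted p = 0.00632 and 0.0214, limma). The groups overlapped for Arnt, and Arnt lost its call in 3 of the 17 alternatives. The tested genes other than P4ha1, Egln3 and Higd1a were named after their values were seen. Hif1a itself did not pass the filter on dim probes.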
